A study of Mus musculus with 4 samples.

Results

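The zinc finger genes of mouse chromosome 17 were taken as every protein-coding gene of the deposited table whose symbol is Zfp followed by a digit and whose position lies on that chromosome, in order of their start. The rule found 46 of the 26433 genes of the table. All 46 had enough reads to be tested, with between 9 and 5442 counts in a library. The names do not make a uniform class. The deposited annotation lists the KRAB domain for 40 of the 46, and another domain for Zfp213, Zfp598, Zfp523, Zfp414, Zfp318 and Zfp36l2. Zfp36l2 carries CCCH fingers, which bind AU-rich elements of mRNA, and is not one of the DNA-binding C2H2 genes.

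RNA of E15 telencephalic tissue was sequenced in 2 WT and 2 cKI f/+ libraries, labelled as cerebral cortex of strain C57BL/6. The cKI f/+ mice carry 1 copy of human SERPINA3 with a 3×flag tag in the Rosa26 locus, behind a CAG promoter and a floxed stop cassette, and Nestin-Cre removes the stop in Nestin-positive cells and their progeny. The controls were WT littermates, and nothing in the sources says whether they carried Cre. Founders were bred with B6D2F2 mice and their offspring with Nestin-Cre mice on a C57BL/6 background, so the strain of origin of chromosome 17 in each library is not given by the sources used here. The deposited columns are named KI2 and KI3 for cKI f/+ and WT1 and WT3 for WT, and their names give the genotype but do not match single sample titles.

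KRAB zinc finger proteins bind DNA with an array of C2H2 fingers, each finger reading a few bases. Their KRAB domain recruits TRIM28, also called KAP1, which brings in the histone methyltransferase SETDB1, HP1 proteins and DNA methylation, and many of them silence transposable elements. The genes arose by repeated tandem duplication and stand in clusters. Zfp57, the best known member on chromosome 17, keeps the DNA methylation of imprinted control regions after fertilisation.

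The counts summed to between 17423512 and 18119444 per library. At that depth 3 counts, taken as the floor, were 0.166 to 0.172 CPM (counts scaled to the library total), which covers counting error only. Markers of radial glia and neurons were present in every library. The libraries also differed in sex-linked genes, all 5 of which were called: Xist had 13223 and 11882 counts in KI2 and KI3 and 5 in each WT library, and the Y-linked genes were at 0 or 1 count in KI2 and KI3 and between 214 and 1149 counts in WT1 and WT3. Sex and genotype therefore cannot be told apart. The summed level of 4 choroid plexus markers was 8.01 and 60.4 CPM in KI2 and KI3 and 0.454 and 1.78 CPM in WT1 and WT3, with Kl at 0 to 2 counts. That of 5 meningeal markers was 20.0, 17.3, 6.98 and 9.13 CPM in the same order, and 4 of them were higher in cKI f/+ at an unadjusted p under 0.05. That of 6 blood markers was lowest in KI3, at 366 CPM against 490 to 522 in the others, and 3 of the 6, Hbb-bt, Hba-a2 and Alas2, were lower in cKI f/+ at an unadjusted p under 0.05. That of 5 ventral telencephalon markers was highest in WT3, at 287 CPM against 227 to 232, and 1 of them, Dlx2, was lower in cKI f/+ at that threshold. Of 5 microglial markers, summing to 23.0 to 28.6 CPM, 1 was lower in cKI f/+ at that threshold, Cx3cr1. In whole tissue, fewer cells of a type and less RNA per cell cannot be told apart.

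The 46 genes fell into 9 neighbourhoods, split wherever consecutive starts lay over 1 Mb apart. Positions are in GRCm38. The largest, chr17:21008941-23599487, held 23 genes from Zfp160 to Zfp13, and the next, chr17:32771236-33631779, held 13 from Zfp871 to Zfp414. Zfp119a, Zfp959 and Zfp119b stood together at chr17:55864892-55949500, and Zfp960 and Zfp97 at chr17:17064113-17146831. The remaining 5 genes, Zfp598, Zfp523, Zfp57, Zfp318 and Zfp36l2, stood alone.

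A repeated coding word was found in 20 of the 23 genes of the large neighbourhood and in none of the 23 genes elsewhere. The 15-base word most often repeated in the coding sequences of the 46 genes was GAAACCTTACAAATG, which spans part of the conserved linker that joins a C2H2 finger to the next. It occurred 83 times, and Zfp54, Zfp213 and Zfp13 were the genes of the large neighbourhood without it. All 83 copies lay in the same reading frame. Of the 63 distances between neighbouring copies of a gene, 35 were of 84 bases, the length of a finger with its linker. The word was chosen as the commonest among the 46 genes, so its share among them is set by that choice. It was found in 29 of 326 Zfp genes of other chromosomes (8.90%), in 0 of 767 other coding genes of chromosome 17 and in 0.347% of all 16695 coding genes with the reference annotation. Zfp758 held the most copies, 10, and Zfp943 and Zfp40 held 8 each. A single repeat is shown for 2 of the genes with a difference at an unadjusted p under 0.05, as coding sequence 5′ to 3′ with the word in capitals at both ends.
Zfp758: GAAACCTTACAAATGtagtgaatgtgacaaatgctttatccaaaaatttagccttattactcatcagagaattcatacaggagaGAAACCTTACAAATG
Zfp40: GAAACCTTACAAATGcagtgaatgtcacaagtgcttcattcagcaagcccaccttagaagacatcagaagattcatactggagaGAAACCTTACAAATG

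**Figure D1:**
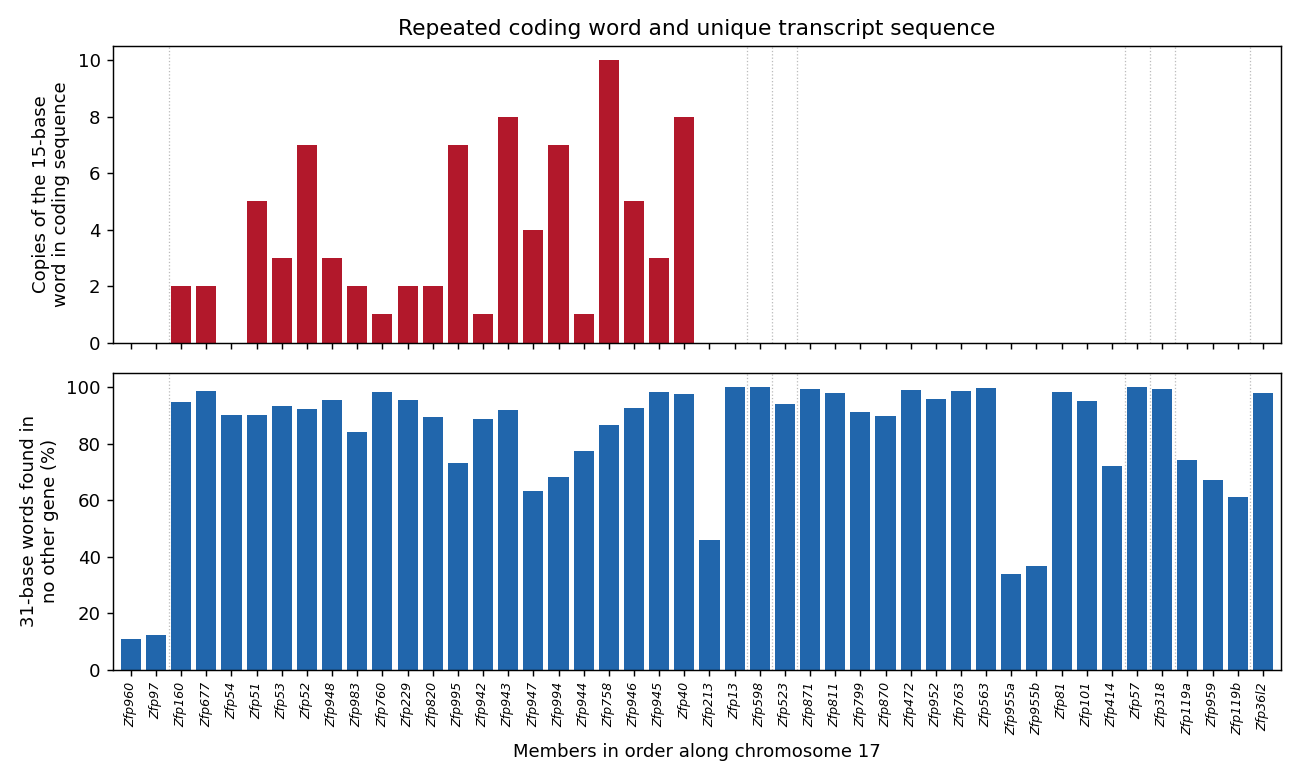
Each column is a gene, in order along chromosome 17, and dotted lines separate the 9 neighbourhoods. The upper bars give the copies of the 15-base word in the coding sequence, up to 10 in Zfp758 and 0 outside the large neighbourhood, and the lower bars the percent of a gene's 31-base transcript words found in no other gene, from 10.8% in Zfp960 to 100% in Zfp13 and Zfp57.

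How far a read could be assigned to a single gene varied between the genes. The median gene had 92.5% of its 31-base transcript words in no other gene of the annotation, and 19 genes had over 95%. Zfp960 and Zfp97 stood at the other end, with 10.8% and 12.3%, and Zfp960 shared 86.8% of its words with Zfp97. Zfp955a and Zfp955b had 34.0% and 36.5% unique words, and Zfp955a shared 66.0% of its words with Zfp955b. Reads of such copies can be split or lost in counting, and their values are uncertain. The nearness is shown by 61 bases of coding sequence from each copy, with the position at which they differ in capitals.
Zfp960: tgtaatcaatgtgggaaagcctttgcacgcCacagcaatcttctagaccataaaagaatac
Zfp97: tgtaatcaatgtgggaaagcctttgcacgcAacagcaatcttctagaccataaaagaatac
Zfp955a: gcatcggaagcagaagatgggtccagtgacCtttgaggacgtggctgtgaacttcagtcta
Zfp955b: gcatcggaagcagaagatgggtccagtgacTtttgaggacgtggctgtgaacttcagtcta

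Levels between genes were compared per kilobase of exon, as RPKM (CPM divided by kilobases of exon). The median gene stood at 3.02 RPKM over the 4 libraries, against 4.37 for 302 tested Zfp genes of other chromosomes, 7.41 for 608 tested other protein-coding genes of chromosome 17 and 5.05 for all tested genes. The 2 highest were lone genes. Zfp57 led with 5442 and 4868 counts in KI2 and KI3 and 5070 and 4953 in WT1 and WT3. It took 23.9% of all counts of the 46 genes, at 76.0 ± 7.13 RPKM in cKI f/+ and 75.6 ± 0.663 in WT (SD, n = 2 each). The groups overlapped, and its log2 fold change (cKI f/+ over WT throughout) was 0.01 with an SE of 0.09.

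Zfp598, a ubiquitin ligase that marks collided ribosomes, came next, with 1875 and 2032 counts in cKI f/+ and 1949 and 1810 in WT. Its level was 28.0 ± 1.17 RPKM in cKI f/+ and 27.5 ± 1.23 in WT, and the groups overlapped. Zfp13 had 820 and 922 counts in cKI f/+ and 798 and 794 in WT, or 18.3 ± 1.24 and 17.1 ± 0.0717 RPKM. Its cKI f/+ libraries were both above WT, with a log2 fold change of 0.10 (SE 0.09, edgeR adjusted p = 0.979). Zfp414 had 646 and 701 counts in cKI f/+ and 606 and 669 in WT, and Zfp811 had 775 and 755 against 798 and 830. Zfp414 overlapped between the groups, and its exons share 705 bases with Gm20507 on the same strand. Zfp811 was lower in both cKI f/+ libraries, with a log2 fold change of -0.12 (SE 0.09, edgeR adjusted p = 0.972). Zfp811 and Zfp523, next to each other when ranked by level, at 12.5 and 12.4 RPKM over the 4 libraries, overlapped in level.

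The other lone genes were Zfp523, Zfp318 and Zfp36l2. Zfp523 had 1908 and 2085 counts in cKI f/+ and 1796 and 1903 in WT, with a log2 fold change of 0.08 (SE 0.08). Zfp318, which acts on the processing of long immunoglobulin transcripts in B cells, had 928 and 877 counts in cKI f/+ and 1028 and 867 in WT, with a log2 fold change of -0.10 (SE 0.10). Zfp36l2 had 337 and 443 counts in cKI f/+ and 423 and 432 in WT, with a log2 fold change of -0.16 (SE 0.13). It was -0.35 without KI3, at an unadjusted p under 0.05, and -0.0075 without KI2. In all 3 genes, the groups overlapped.

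The 5 lowest genes per length were Zfp97, Zfp947, Zfp52, Zfp960 and Zfp54, at 0.405 to 0.793 RPKM. Zfp97 had 15 and 19 counts in cKI f/+ and 19 and 24 in WT, and Zfp960 had 26 and 27 against 35 and 36. Both were lower in cKI f/+ once scaled to library size, though KI3 and WT1 had the same count of Zfp97, with log2 fold changes of -0.37 (SE 0.38) and -0.45 (SE 0.30), and with their reads summed, as copies, the log2 fold change was -0.42 (edgeR adjusted p = 0.969). Zfp947 had 24 and 9 counts in cKI f/+ and 27 and 25 in WT. KI3 stood far below the other 3 libraries, and the log2 fold change was -0.68 with an SE of 0.47, and it was -0.12 without KI3 and -1.58 without KI2. Zfp52 had 32 and 34 counts in cKI f/+ and 20 and 42 in WT. Its WT libraries lay on either side of both cKI f/+ libraries, and its log2 fold change of 0.06 (SE 0.39) became -0.39 without WT1 and 0.70 without WT3. Zfp54 had 42 and 33 counts in cKI f/+ and 39 and 45 in WT, and the groups overlapped.

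**Figure D2:**
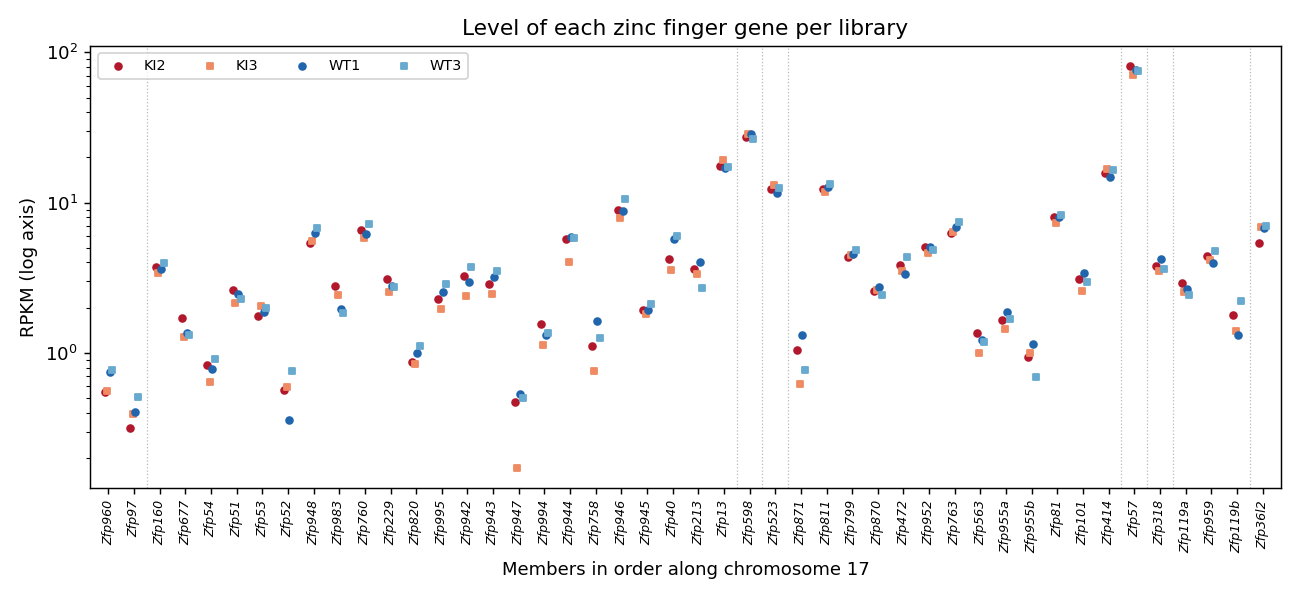
RPKM of each gene in each of the 4 libraries, on a log axis, with genes in order along chromosome 17 and dotted lines between neighbourhoods. Zfp57 lies above all others at about 75.8 RPKM over the 4 libraries, and the KI3 point of Zfp947 is the lowest.

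The comparison of cKI f/+ with WT asked which of these genes differ in mice that express human SERPINA3 in neural progenitors. None of the 46 genes was called at an adjusted p under 0.05 by edgeR's quasi-likelihood test, against 0.12% of all 15786 genes tested. At an unadjusted p under 0.05 there were 4 of the 46 (8.70%), with 1 higher and 3 lower, against 4.6% of all genes tested (2.26% higher and 2.34% lower). Without KI2 there were 7, against 6.09% of all genes in the same fit, and without KI3 there were 3, against 3.65%. Without WT1 there were 5, against 5.96%, and without WT3 there were 4, against 7.96%. The smallest adjusted p was that of Zfp40, 0.400, and the other 45 had adjusted p-values from 0.969 to 0.997. DESeq2 called 0 of the 46, against 0.107% of the genes for which it gave an adjusted p, and put 1 at an unadjusted p under 0.05, against 1.49% of the same genes. The size that 2 libraries a group can resolve is limited, as the smallest SE of any of the 46 log2 fold changes was 0.08.

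Zfp40, a KRAB gene, had 337 and 291 counts in KI2 and KI3 and 455 and 467 in WT1 and WT3. In RPKM it was 3.91 ± 0.464 in cKI f/+ and 5.87 ± 0.153 in WT (SD, n = 2 each), and both cKI f/+ libraries lay below both WT libraries. The log2 fold change was -0.58 (SE 0.12, edgeR adjusted p = 0.400). edgeR's likelihood ratio test, which does not allow for uncertainty in each gene's spread, called it with an adjusted p of 0.0227, and that test called 0.342% of all genes and no other of the 46. Leaving out a library each time moved the log2 fold change from -0.46 without KI3 to -0.72 without KI2, with adjusted p-values from 0.0657 to 0.740. Zfp40 has 97.7% unique words and no exon shared with another annotated gene.

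Zfp983, the only gene higher at an unadjusted p under 0.05, had 216 and 192 counts in cKI f/+ and 150 and 141 in WT. Both cKI f/+ libraries were above both WT libraries, at 2.62 ± 0.257 against 1.91 ± 0.0687 RPKM. The log2 fold change was 0.46 (SE 0.16, edgeR adjusted p = 0.969). Its exons overlap an unnamed clone-based gene by 233 bases on the same strand, and it shares sequence with Gm10226. With near-identical genes summed, here Zfp983 and Gm10226 without Gm10509, the log2 fold change was 0.48.

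Zfp943 had 244 and 215 counts in cKI f/+ and 271 and 292 in WT, or 2.68 ± 0.279 and 3.36 ± 0.203 RPKM. The groups did not overlap, and the log2 fold change was -0.32 (SE 0.14, edgeR adjusted p = 0.969). Without KI3 it was -0.21. Its exons overlap Gm9772 on the opposite strand by 77 bases. Zfp758 had 59 and 41 counts in cKI f/+ and 86 and 65 in WT, or 0.940 ± 0.253 and 1.45 ± 0.274 RPKM. Its groups did not overlap, though KI2 and WT3 lay close together. The log2 fold change was -0.62 (SE 0.27, edgeR adjusted p = 0.969), and it was -0.36 without KI3 and -0.94 without KI2.

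Zfp943 and Zfp758 each start back to back with another of the 46 genes. The start of Zfp943 lies 88 bases from that of Zfp942 on the opposite strand, and the start of Zfp758 lies 53 bases from that of Zfp944. Zfp942 had 301 and 228 counts in cKI f/+ and 275 and 344 in WT, with a log2 fold change of -0.25 (SE 0.18). Zfp944 had 285 and 203 counts in cKI f/+ and 291 and 282 in WT, with a log2 fold change of -0.26 (SE 0.18). In both partners KI3 was the lowest of the 4 libraries, and neither reached an unadjusted p under 0.05 with all 4 libraries. With a library left out, Zfp942 ran from -0.50 without KI2 to -0.05 without KI3 and passed that threshold without KI2 and without WT1, and it was -0.07 without WT3. Zfp944 ran from -0.56 without KI2, where it passed the threshold, to -0.01 without KI3. In RefSeq's promoters of GRCm38.p6, which cover 250 bases before and 50 after each start, the promoters of Zfp758 and Zfp943 shared 93.0% of their 15-base words and those of Zfp942 and Zfp944 shared 86.0%. The stretch of 250 bases before the start is shown for the 2 genes at an unadjusted p under 0.05, on the plus strand, with matches to GGGCGG and CCGGAA on either strand in capitals. The first lies at chr17:21962309-21962558 and the second at chr17:22361213-22361462.
Zfp943: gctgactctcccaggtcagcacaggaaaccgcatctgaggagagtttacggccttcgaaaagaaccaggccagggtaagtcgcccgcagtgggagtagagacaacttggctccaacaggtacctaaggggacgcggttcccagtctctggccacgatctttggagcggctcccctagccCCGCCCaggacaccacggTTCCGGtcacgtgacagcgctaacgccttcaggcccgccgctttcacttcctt
Zfp758: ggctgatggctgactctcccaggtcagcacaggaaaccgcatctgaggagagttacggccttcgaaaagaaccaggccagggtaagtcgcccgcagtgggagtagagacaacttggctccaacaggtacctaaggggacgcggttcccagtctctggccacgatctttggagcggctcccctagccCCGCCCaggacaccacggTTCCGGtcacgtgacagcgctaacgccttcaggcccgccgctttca

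RefSeq promoters were matched for 41 of the 46 genes, 48 promoters in all. The word CCGGAA, the core of ETS sites, was found on either strand in 39.6% of them, against 34.3% of promoters of Zfp genes of other chromosomes and 14.9% of all promoters. CCAAT was found in 60.4%, against 43.7% and 37.4%. GGGCGG, the GC box, was in 45.8%, against 44.3% and 35.7%, TATAAA in 8.33%, against 6.93% and 13.6%, and ATGGCGG in 6.25%, against 9.64% and 4.05%. The promoters of near copies are themselves near copies, so these shares do not count independent sequences. They describe letters in a window and not sites of binding.

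Across the 46 genes, 31 had a log2 fold change below 0 (67.4%), against 48.8% of all genes tested. The median was -0.09, and the members ran from -0.68 to 0.46. The same share was 61.6% of the 302 Zfp genes of other chromosomes, with a median of -0.04, and 42.8% of the 608 other protein-coding genes of chromosome 17, with a median of 0.02. The median of all genes tested was 0.00. With DESeq2 size factors, or with library totals alone, 31 of the 46 were below 0 as well. Groups did not overlap in 14 of the 46 genes that were lower, against 2835 of all 15786 genes tested (18.0%). They did not overlap in 2 of the 46 that were higher, against 2523 of the 15786 (16.0%). The median size of a difference between the groups was 0.11 on the log2 scale, against 0.099 over all genes tested. The median distance between the 2 libraries of a group was 0.18 in cKI f/+ and 0.13 in WT. The first is between groups of 2 libraries and the second between single libraries, so their sizes cannot be compared directly.

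**Figure D3:**
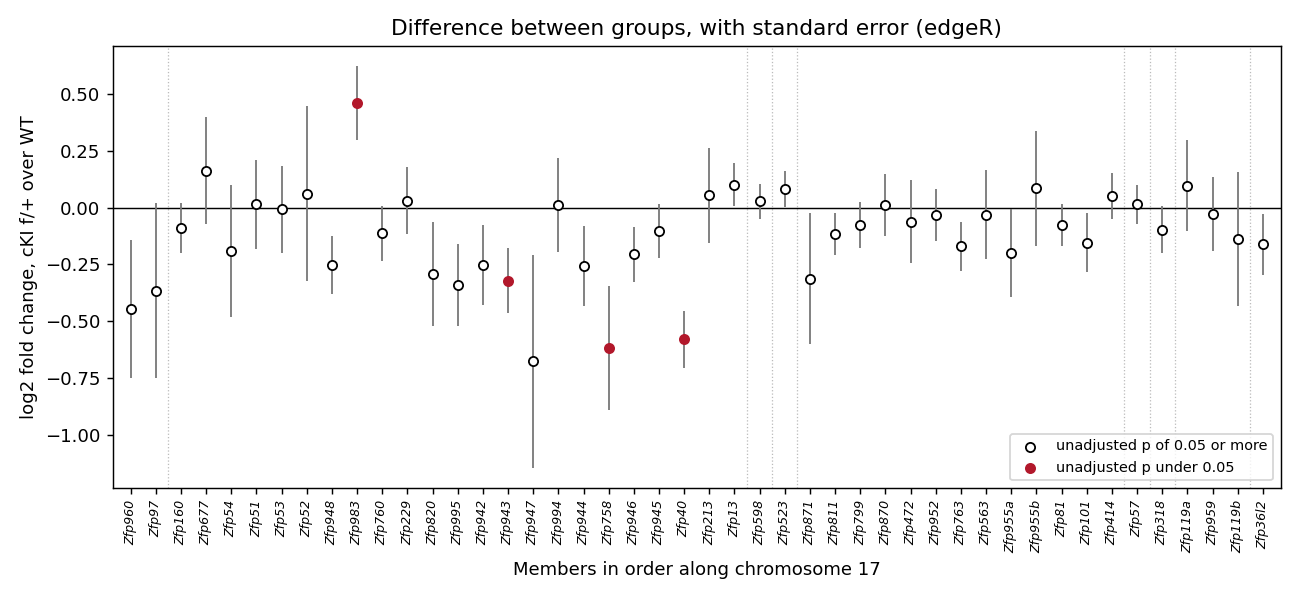
log2 fold change of each gene, cKI f/+ over WT, with its SE as bars, in order along chromosome 17, with dotted lines between neighbourhoods. Filled points mark Zfp983, Zfp943, Zfp758 and Zfp40, at an unadjusted p under 0.05, and 31 of the 46 points lie below 0.

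By the median of each library, the shift below 0 was in KI3 and not in KI2. KI3 was the lowest of the 4 libraries for 26 of the 46 genes (56.5%), against 24.7% of all genes tested and 40.4% of Zfp genes of other chromosomes. WT3 was the highest for 22 of the 46, a count for which no share over all genes was computed. The median of log2 CPM relative to each gene's mean, here with CPM normalized by edgeR's TMM, was 0.02 in KI2 and -0.11 in KI3, against 0.02 in WT1 and 0.09 in WT3. Without KI3, the median log2 fold change of the 46 genes was -0.01 and 26 were below 0. Without KI2 it was -0.17 and 37 were below 0. Without WT1 it was -0.14, and without WT3 it was -0.06. KI3 was also the library with the most choroid plexus and the least blood RNA, and WT3 the one with the most RNA of the ventral telencephalon markers. The summed level of 7 neuron markers was 5618, 5278, 5757 and 5815 CPM in KI2, KI3, WT1 and WT3, lowest in KI3 and highest in WT3. That of 5 radial glia markers was 2071, 2231, 2070 and 2210 CPM in the same order, highest in KI3. No marker of these 2 lists had an edgeR unadjusted p under 0.05. The part of all these lists in the members' levels was not tested. The genes' summed level was 1215 and 1141 CPM in KI2 and KI3 and 1216 and 1227 CPM in WT1 and WT3.

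**Figure D4:**
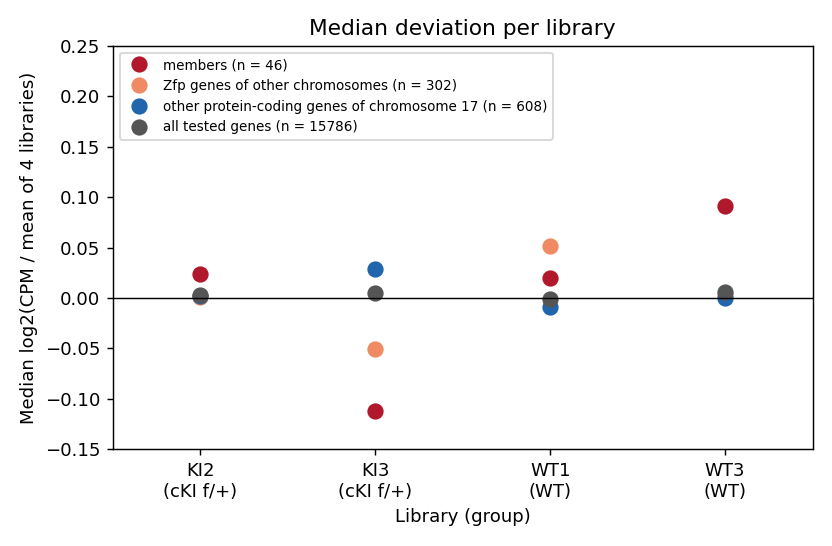
Median of log2(CPM divided by the geometric mean of the 4 libraries) in each library for the 46 genes, 302 Zfp genes of other chromosomes, 608 other protein-coding genes of chromosome 17 and all 15786 genes tested. CPM were normalized by TMM, which scales the libraries to each other, and genes at 0 counts in a library were left out. The 46 genes lie at -0.11 in KI3 and 0.09 in WT3, and all genes tested lie near 0 in each library.

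Among the 40 genes listed with KRAB, 29 were below 0, with a median log2 fold change of -0.11, and among the other 6 there were 2, with a median of 0.04. In the large neighbourhood, 15 of 23 were below 0, with a median of -0.11 and a range from -0.68 to 0.46, and it held all 4 genes at an unadjusted p under 0.05. In the neighbourhood of 13 genes, 10 were below 0, with a median of -0.08 and a range from -0.31 to 0.08. The trio around Zfp959 had a median of -0.03. Of the 20 genes with the repeated word, 14 were below 0, with a median of -0.16, and of the 26 without it, 17 were below 0, with a median of -0.07. The genes with over 95% unique words had 14 of 19 below 0 (median -0.10), and the others had 17 of 27 (median -0.09). These groups were not tested against each other.

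The copies Zfp955a and Zfp955b gave fold changes of opposite sign. Zfp955a had 104 and 92 counts in cKI f/+ and 117 and 104 in WT, with a log2 fold change of -0.20 (SE 0.19). Zfp955b had 97 and 105 counts in cKI f/+ and 117 and 70 in WT, with a log2 fold change of 0.08 (SE 0.25). The WT libraries of Zfp955b lay on either side of both cKI f/+ libraries. With near-identical genes summed, here Zfp955a, Zfp955b and the pseudogene Zfp422-ps, the log2 fold change was -0.11. The exons of Zfp955b overlap Zfp422-ps on the opposite strand by 707 bases, and the strand setting of the counting is not given in the sources used here.

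The genes for proteins that KRAB proteins work through were measured as RNA in the same libraries. Of 25 such genes none was called, 14 were below 0 and 1 had an unadjusted p under 0.05 (4.0%), and their median log2 fold change was -0.01. Trim28, the KRAB corepressor, had 12099 and 13873 counts in cKI f/+ and 12008 and 11707 in WT, with a log2 fold change of 0.10 (SE 0.08, edgeR adjusted p = 0.969). Setdb1 had 2312 and 2404 counts in cKI f/+ and 2368 and 2140 in WT, with a log2 fold change of 0.04 (SE 0.08). Atrx, a chromatin remodeller that deposits histone H3.3 at silenced repeats and that lies on the X chromosome, had 3016 and 2563 counts in cKI f/+ and 3290 and 3188 in WT. Both cKI f/+ libraries were lower, with a log2 fold change of -0.24 (SE 0.10, edgeR adjusted p = 0.969). Trim28 stood at 168 RPKM and Setdb1 at 19.0 RPKM over the 4 libraries, against 3.02 RPKM for the median of the 46 genes.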

How the data were processed

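Total RNA was sequenced on an Illumina HiSeq. The values deposited by the authors are counts of reads on each gene, not normalized, in 4 libraries. The submitters' processing notes name Bowtie2 2.2.3, TopHat2 2.0.12 and HTSeq 0.6.0, and the mm9 build, while the positions in the table are those of GRCm38. Strand and multimapping settings are not given in the sources used here. The table's own comparison columns (fold change, p-value, mean signal) were not used. The labels describe triplicates, and 2 libraries per group were analysed here.

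R 4.3.3 with edgeR 4.0.16 kept 15786 genes (default expression filter), normalized by TMM and ran the quasi-likelihood test, with p-values adjusted by Benjamini-Hochberg over all tested genes and a threshold of 0.05. DESeq2 1.42.0 was an alternative. The SE is the log2 fold change divided by the square root of F. RPKM used CPM of library totals and GENCODE M21 exon lengths, and all 46 identifiers were matched there, 28 with the same position. Replicates were not copies, with a chi-square per degree of freedom of 7.49 (WT) and 5.63 (cKI f/+). The paper defines biological replicates in mice as different embryos, but the embryo behind each library is not named. The p-values measure the spread between these libraries, which may be technical. The edgeR quasi-likelihood fit was tested on simulated counts.

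The members, lists and tests were chosen with earlier results of these data known. Named with counts were genes at an unadjusted p under 0.05 or called by any test, the 5 highest and 5 lowest per length, Zfp57 and Zfp40, 14 in all. Zfp942, Zfp944, Zfp955a, Zfp955b, Zfp523, Zfp318 and Zfp36l2 were added after their values were seen, for their position or sequence. Counts of C2H2 fingers in the proteins were planned and not run. Alternatives were other normalizations and tests, other filters, removal of chromosomes X and Y, near-identical genes summed, and each library left out.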

Additional observations from a re-analysis of the deposited data

How the results depend on the processing

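Leaving out a library leaves a single library in its group, which is then assumed to vary like the other group. The 46 genes held 0 calls under every alternative except edgeR's likelihood ratio test, which called 1, Zfp40. At an unadjusted p under 0.05 the count was 4, fell to 1 with DESeq2 and ran from 3 to 7 with a library left out. The median log2 fold change ran from -0.17 to -0.013 with a library left out, and both ends were reached by removing a cKI f/+ library. The percent of all genes called was 0.342 with the likelihood ratio test, 0.0605 with no filter beyond 1 count, 0.0722 with chromosomes X and Y removed, 0.0409 among genes with 10 or more counts in each library, and 0.304 to 0.450 with a library left out. Signs turned, none of them past the threshold, with a library left out for Zfp318 (-0.21 to 0.019), Zfp414 (-0.030 to 0.13), Zfp52 (-0.39 to 0.70), Zfp57 (-0.10 to 0.11), Zfp598 (-0.016 to 0.070) and Zfp955b (-0.23 to 0.49), and for Zfp955b with near-identical genes summed (-0.11). The other named genes kept their direction under every alternative that gave a value, and Zfp947 gave none when each library needed 10 counts. The cause of these changes was not tested. No paired analysis was possible because the litter of each library is not given in the sources used here. WT and cKI f/+ have under 2 replicate numbers in common, in the labels and in the library names, and such numbers need not stand for litters. The SE of a log2 fold change ran from 0.08 for Zfp598 to 0.47 for Zfp947, which had 9 to 27 counts in a library.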
